A study of Sus scrofa with 23 samples.

Results

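Prostaglandin synthesis was followed through 3 genes, PTGS1, PTGS2 and PTGES, in bone marrow-derived macrophages of pigs exposed to lipopolysaccharide (LPS, a component of the bacterial outer membrane). The members were chosen by name, as every probe set that the platform annotation gives to one of these genes and to no other. This found 4 of the 23999 probe sets tested, 2 for PTGS1 and 1 each for PTGS2 and PTGES, and 3 of the 6765 named genes. The near-named PTGES3 is a separate gene and was not a member.

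Prostaglandins are lipid signals made from arachidonic acid, which phospholipases free from membranes. PTGS1 and PTGS2, better known as cyclooxygenases COX-1 and COX-2, turn arachidonic acid into prostaglandin H2, the parent of all prostanoids. PTGS1 is the form that many cell types make at rest, and PTGS2 is the form known to be induced by inflammatory stimuli, LPS on macrophages among them. PTGES, the microsomal prostaglandin E synthase, turns prostaglandin H2 into prostaglandin E2, a mediator of fever, pain and vessel dilation that also acts back on macrophages.

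Marrow cells of crosses between Large White and Landrace pigs were grown with recombinant human CSF1, the macrophage growth factor, and then stimulated with 100 ng/ml of LPS from Salmonella enterica serotype minnesota. All groups, the unstimulated one included, had been through the same culture with CSF1. By their labels, 6 arrays were unstimulated (0 h), 6 had 2 h of LPS, 6 had 7 h and 5 had 24 h. The animals were 3 pigs, of which pigs 1 and 3 are labelled male and pig 2 female, and each was cultured in duplicate at every time except pig 3 at 24 h, which has 1 culture. The labels give no age, and every value is that of a whole culture. Fewer cells of a type and less RNA per cell therefore cannot be told apart.

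The arrays went against their labels in ways that bear on every comparison below. EIF1AY, a gene of the Y chromosome, had the level of the other sex on 8 of 23 arrays, 2 labelled pig 1, 4 labelled pig 2 and 2 labelled pig 3. Of the 22 arrays with a labelled duplicate culture, 0 had that duplicate as the most similar array. The arrays instead formed 11 pairs of mutually most similar arrays, and 1 array was in no pair. All 11 pairs shared the labelled pig and culture and 0 shared the labelled time: each joined either 0 h with 2 h or 7 h with 24 h. The similarity was the correlation over all probe sets outside the members and the gene lists, and it was 0.995 to 0.997 within these pairs, against 0.975 to 0.990 within labelled duplicates. Which array belongs to which time or pig is therefore not settled here. Each labelled pig held arrays of both EIF1AY levels, so means and counts of pigs below are those of labels, not of known animals. Comparisons of times are given as labelled and show neither a response to LPS nor its absence. No other assignment of arrays to times or pigs was made.

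Of 10 macrophage markers 7 were measured, and most were bright whatever the label. AIF1, TYROBP and SPI1, genes that myeloid cells express, spanned only 0.74, 0.53 and 0.74 log2 units over the 23 arrays. The T cell receptor components CD3D, CD3E and CD3G were dim, with highest log2 intensities of 6.31, 4.99 and 4.79, although the T and NK cell marker CD2 ran from 5.18 to 10.45. The monocyte and macrophage receptors CD14 and CD163 spanned 3.86 and 3.51, and the integrin ITGAM was dim, at 5.03 or less. Marker lists of other cells also varied between arrays of the same labelled time. The log2 of the summed intensity of 4 granulocyte markers ran from 10.11 to 13.65 at the labelled 0 h, and that of 7 stromal markers from 8.84 to 11.59. The part of such cells in the values below was not tested.

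PTGS1, PTGES and PTGS2 each had their lowest array in labelled pig 1. The highest was in labelled pig 3 for PTGS1 and PTGES and in labelled pig 2 for PTGS2. PTGS2 spanned at least 2.50 log2 units within each labelled pig. PTGES ran from a log2 intensity of 6.91 to 12.97 over the 23 arrays, a 66.9-fold span. PTGS1 on its brighter probe set ran from 4.69 to 10.19, a 45.2-fold span, and PTGS2 from 4.05 to 8.88, a 28.4-fold span. Each of these 3 spans was wider than at least 99.3% of those of all probe sets, and 10.4% of all probe sets spanned 2 log2 units or more. The dimmer of the PTGS1 probe sets stayed between 4.14 and 5.30, a narrower span, and correlated with the brighter one at 0.74 (Pearson) over the 23 arrays. Its medians in labelled pigs 1, 2 and 3 were 4.44, 4.68 and 4.79, in the same order as those of the brighter probe set, 4.89, 6.96 and 8.71. The level of PTGS1 below is that of the brighter probe set unless the other is named.

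**Figure D1:**
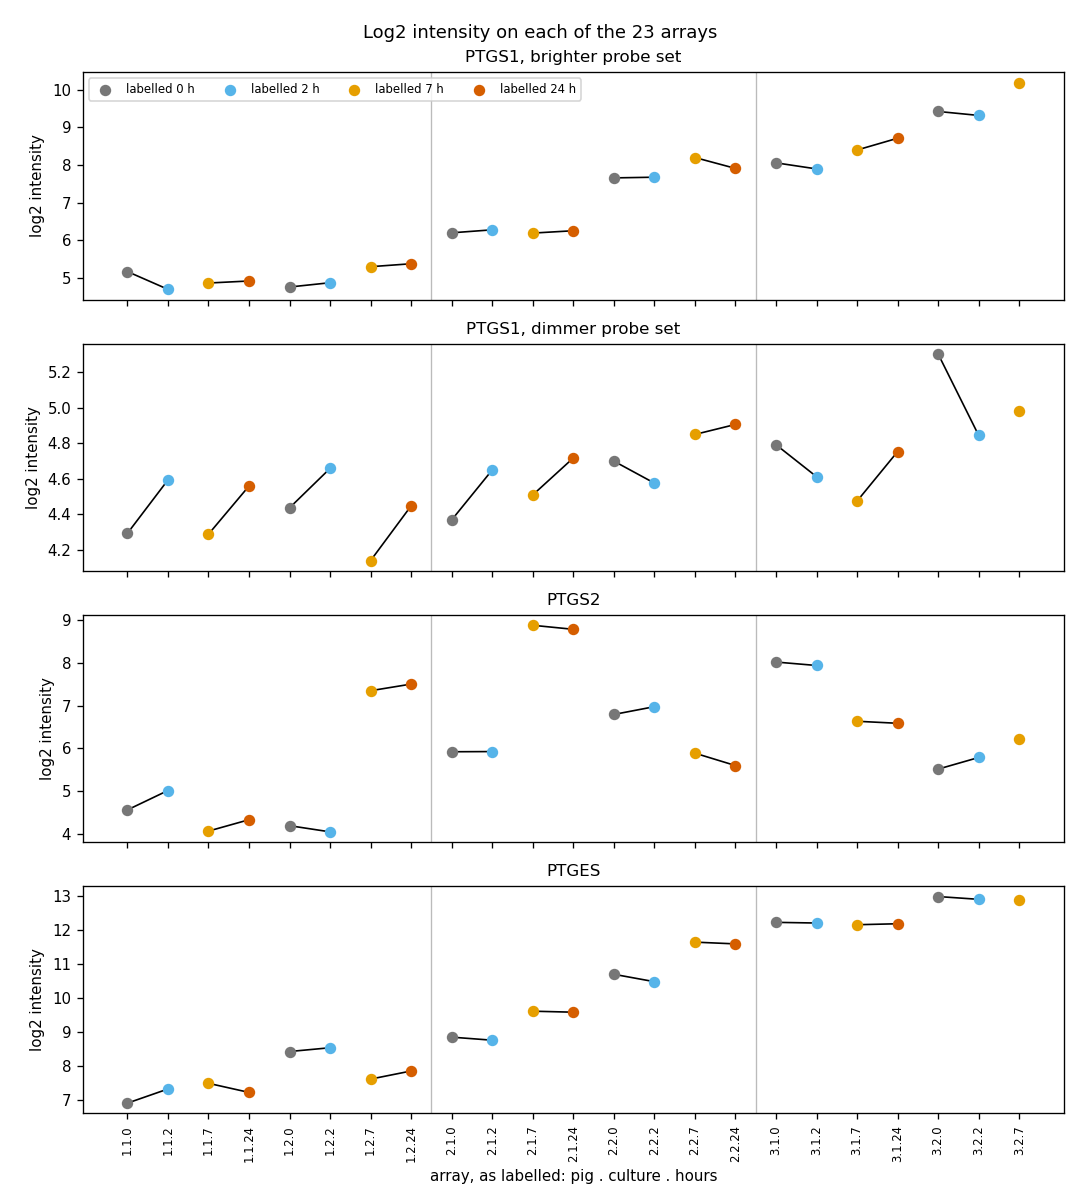
Log2 intensity (y axis) of the 4 probe sets on each of the 23 arrays (x axis, named by labelled pig, culture and hours); colours give the labelled time, black lines join most similar arrays and grey lines separate labelled pigs. PTGES runs from 6.91 on the first array to 12.97 in labelled pig 3, and PTGS2 is highest at 8.88 in labelled pig 2.

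PTGS1, the resting cyclooxygenase, was low on all 8 arrays of labelled pig 1. There it lay between 4.69 and 5.37, with a median of 4.89. It lay between 6.19 and 8.20 on the 8 arrays of labelled pig 2 and between 7.89 and 10.19 on the 7 arrays of labelled pig 3. No array of pig 1 reached the levels of the other pigs, and those of pigs 2 and 3 overlapped. Within pig 2, the arrays of the first culture lay between 6.19 and 6.27 and those of the duplicate culture between 7.66 and 8.20. Within pig 3, the first culture had 8.06 and 7.89 at the labelled 0 and 2 h and 8.40 and 8.71 at 7 and 24 h. Its duplicate culture had 9.42, 9.32 and 10.19 at 0, 2 and 7 h, the brightest arrays of this gene.

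By labelled time, PTGS1 reached down to nearly the same level in all 4 groups. The 6 arrays labelled 0 h had a lowest, median and highest log2 intensity of 4.75, 6.92 and 9.42. At 2 h these values were 4.69, 6.97 and 9.32. At 7 h they were 4.86, 7.19 and 10.19, and on the 5 arrays at 24 h they were 4.91, 6.25 and 8.71. All 4 groups overlapped over most of their range. Labelled time accounted for 1.40% of the variance of PTGS1 over the arrays and labelled pig for 84.8%, where the median probe set had 6.17% and 26.7%.

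PTGS2, the inducible cyclooxygenase, had its brightest arrays in all 3 labelled pigs. The highest were the first culture of pig 2 at the labelled 7 and 24 h, with log2 intensities of 8.88 and 8.78. The first culture of pig 3 followed, with 8.02 and 7.94 at the labelled 0 and 2 h, and then the duplicate culture of pig 1, with 7.35 and 7.50 at 7 and 24 h. Of these 6 arrays, 1 was labelled unstimulated, that of pig 3 at 0 h, and the others carried labels of LPS at 2, 7 or 24 h. Over the whole series, 6 of 23 arrays were labelled unstimulated, a share near that of 1 in 6.

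The lowest PTGS2 levels were all in labelled pig 1. Its duplicate culture had 4.19 and 4.05 at the labelled 0 and 2 h, and its first culture had 4.56, 5.02, 4.07 and 4.33 at 0, 2, 7 and 24 h. Labelled pigs 2 and 3 had no array below 5.52. Between these extremes, the first culture of pig 2 had 5.92 and 5.93 at 0 and 2 h. The duplicate culture of that pig had 6.79, 6.98, 5.89 and 5.60 at 0, 2, 7 and 24 h. Pig 3 had 6.64 and 6.59 in the first culture at 7 and 24 h, and 5.52, 5.79 and 6.23 in the duplicate at 0, 2 and 7 h. Labelled pig accounted for 30.1% of the variance of PTGS2 and labelled time for 5.17%, both close to the median probe set.

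By labelled time, the PTGS2 groups overlapped widely. The lowest, median and highest log2 intensity were 4.19, 5.72 and 8.02 at 0 h, and 4.05, 5.86 and 7.94 at 2 h. They were 4.07, 6.43 and 8.88 at 7 h, and 4.33, 6.59 and 8.78 at 24 h. Every labelled time held at least 1 array below 4.6 and 1 above 7.9.

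PTGES, the terminal synthase of prostaglandin E2, separated the 3 labelled pigs without overlap. Its log2 intensity lay between 6.91 and 8.53 in pig 1 (median 7.55, 8 arrays), between 8.76 and 11.63 in pig 2 (median 10.04, 8 arrays) and between 12.15 and 12.97 in pig 3 (median 12.22, 7 arrays). Arrays of the labelled pigs did not overlap for 32 of 23999 probe sets (0.133%), and PTGES was the only one of the 4 member probe sets among them. Labelled pig accounted for 87.8% of its variance and labelled time for 0.826%. Arrays with either level of EIF1AY stood under every labelled pig, so the contrast is one of labels, and animals cannot be compared by it.

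Inside labelled pig 2, PTGES had 4 levels. The first culture had 8.85 and 8.76 at the labelled 0 and 2 h and 9.61 and 9.58 at 7 and 24 h. The duplicate culture had 10.69 and 10.47 at 0 and 2 h and 11.63 and 11.58 at 7 and 24 h. The step between the cultures was thus wider than that between the labelled times. Inside labelled pig 1, the first culture had 6.91, 7.32, 7.49 and 7.22 at 0, 2, 7 and 24 h, and the duplicate had 8.42, 8.53, 7.61 and 7.85. In pig 3 the first culture stayed between 12.15 and 12.22, and the duplicate between 12.87 and 12.97.

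At each labelled time PTGES therefore had arrays at both ends of its range. The lowest, median and highest log2 intensity were 6.91, 9.77 and 12.97 at 0 h, and 7.32, 9.61 and 12.89 at 2 h. At 7 h they were 7.49, 10.62 and 12.87, and at 24 h 7.22, 9.58 and 12.17.

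**Figure D2:**
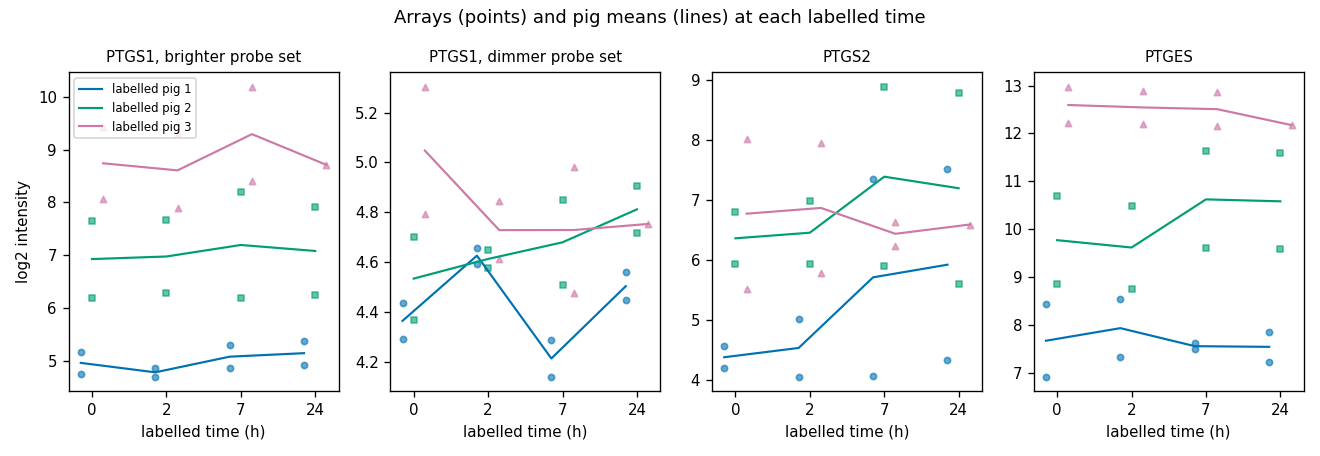
Log2 intensity (y axis) at each labelled time (x axis, hours, evenly spaced) for the 4 probe sets; points are arrays, lines join the means of each labelled pig. For PTGES the lines of the 3 labelled pigs lie apart at every time, and for PTGS2 they cross.

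Between labelled times, 0 of the 4 member probe sets passed the limma test in any of 5 comparisons, with adjusted p-values of 0.914 to 1.00. The test used the mean of each labelled pig at each labelled time, with labelled pig as a block. Few probe sets of any kind passed. The share was 0.0125% for 2 h set against 0 h, and 0% for 7 h set against 0 h. It was 0.00417% in each of the other 3 comparisons, those of 24 h with 0 h, of 7 h with 2 h and of 24 h with 7 h. The count of the members is near that background. Of the 20 member tests, 2 had an unadjusted p under 0.05, both of PTGS1 and both with the labelled 7 h on top. Over all probe sets, 2.17%, 3.14% and 4.11% reached that level at 2, 7 and 24 h set against 0 h, 2.97% at 7 h set against 2 h, and 4.23% at 24 h set against 7 h. No member passed the F test over all 4 labelled times (0.00833% of probe sets passed, adjusted p = 1.00 for each member in limma) or the test of a pig-by-time interaction (0.00417% passed, adjusted p = 1.00 for each in limma). Unadjusted p-values under 0.05 were given to 1 member probe set, the brighter of PTGS1, by the F test over times, and to 0 by the interaction test, against 2.89% and 4.11% of all probe sets. The interaction test takes its error from labelled duplicate cultures, which were not most similar arrays. It therefore cannot show that the labelled pigs changed alike.

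PTGS1 averaged 7.19 ± 2.11 at the labelled 7 h and 6.87 ± 1.89 at 0 h (log2, SD, n = 3 pigs). The difference was 0.31 ± 0.12 (SE), with the 7 h mean higher in 3 of 3 pigs and a limma adjusted p of 0.993. By pig it was 0.12, 0.27 and 0.55 in pigs 1, 2 and 3. The first cultures of pigs 1 and 2 were not higher at 7 h, and that of pig 1 went from 5.16 to 4.86. Against 2 h, where PTGS1 averaged 6.79 ± 1.92, the 7 h mean was higher by 0.40 ± 0.12 and in 3 of 3 pigs (limma adjusted p = 0.999). Without the 8 arrays against their labelled sex, these differences were 1.19 and 1.28, with limma adjusted p-values of 0.914 and 0.919. In labelled pig 2 that fit kept only the first culture at 0 and 2 h (6.19 and 6.27) and only the duplicate at 7 h (8.20). Time and culture cannot be told apart there. In pig 3 it kept only the first culture at 0 and 2 h (8.06 and 7.89) but both at 7 h (8.40 and 10.19). In pig 1 it kept both cultures at 0 and 2 h but only the duplicate at 7 h (5.29). The cultures gave unlike values: at 7 h the difference from 0 h was 0.0095 in the first cultures alone and 0.62 in the duplicates alone, and that from 2 h was 0.19 and 0.61. At 2 h against 0 h the difference was -0.09 ± 0.12, and at 24 h against 0 h it was 0.10 ± 0.12. For pig 3 the 24 h value is the first culture alone (8.71), set against both cultures at 0 h (8.06 and 9.42).

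PTGS2 averaged 5.84 ± 1.28 at the labelled 0 h, 6.51 ± 0.84 at 7 h and 6.57 ± 0.64 at 24 h (log2, SD, n = 3 pigs). The differences from 0 h were 0.67 ± 0.35 at 7 h (95% interval -0.12 to 1.47, limma adjusted p = 0.993) and 0.73 ± 0.35 at 24 h (-0.07 to 1.53, limma adjusted p = 0.914). The labelled pigs, which are not known to be single animals, did not move alike. The 24 h mean differed from the 0 h mean by 1.54 in labelled pig 1, 0.83 in pig 2 and -0.18 in pig 3. Pig 3 has only its first culture at 24 h (6.59), set against the mean of both cultures at 0 h (8.02 and 5.52). Within that first culture the level went from 8.02 at 0 h to 6.59 at 24 h. Without pig 1 the differences from 0 h were 0.35 at 7 h and 0.33 at 24 h, and without pig 3 they were 1.18 and 1.19. In the first cultures alone they were 0.36 and 0.40, and in the duplicates alone 0.99 and 1.04. Without the 8 arrays against their labelled sex they were 0.45 and 0.46, in a fit unbalanced by culture in every pig. Pig 1 kept both cultures at 0 h (4.56 and 4.19) but only the duplicate at 7 and 24 h (7.35 and 7.50). Pig 3 kept only the first culture at 0 h (8.02), both at 7 h (6.64 and 6.23) and the first at 24 h (6.59). In pig 2 the first culture at 0 h (5.92) was set against the duplicate at 7 and 24 h (5.89 and 5.60). At 2 h against 0 h PTGS2 differed by 0.11 ± 0.35, with an interval of -0.68 to 0.91 that rests on the spread across all times. The pig means lay close together here, with differences of 0.15, 0.09 and 0.10 in pigs 1, 2 and 3. The cultures within pigs 1 and 3 went opposite ways. In pig 1 the first culture went from 4.56 to 5.02 and the duplicate from 4.19 to 4.05. In pig 3 they went from 8.02 to 7.94 and from 5.52 to 5.79. Both cultures of pig 2 were higher at 2 h, with 5.92 to 5.93 and 6.79 to 6.98. A fit of only 0 and 2 h gave a limma adjusted p of 0.485, against 1.00 in the fit of all times.

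PTGES averaged 10.01 ± 2.47 at the labelled 0 h, 10.03 ± 2.34 at 2 h, 10.23 ± 2.50 at 7 h and 10.10 ± 2.36 at 24 h (log2, SD, n = 3 pigs). Its differences from 0 h were 0.02 at 2 h, 0.22 at 7 h and 0.09 at 24 h, each with an SE of 0.28. Their intervals reached from -0.62 to 0.66, from -0.42 to 0.86 and from -0.55 to 0.73. The 7 h mean was above that of 0 h by 0.85 in labelled pig 2 and differed by -0.11 and -0.09 in pigs 1 and 3. For pig 3 the 24 h value is the first culture alone (12.17), set against both cultures at 0 h (12.22 and 12.97). Without the 8 arrays against their labelled sex, the differences at 7 and 24 h were 1.01 and 0.96, with limma adjusted p-values of 0.999 and 0.964. In labelled pig 2 that fit set the first culture at 0 h (8.85) against the duplicate at 7 and 24 h (11.63 and 11.58). Time and culture cannot be told apart there. Pig 1 at 7 and 24 h and pig 3 at 7 h were also unbalanced by culture against 0 h. At 7 h the difference from 0 h was 0.42 in the first cultures alone and 0.010 in the duplicates alone.

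**Figure D3:**
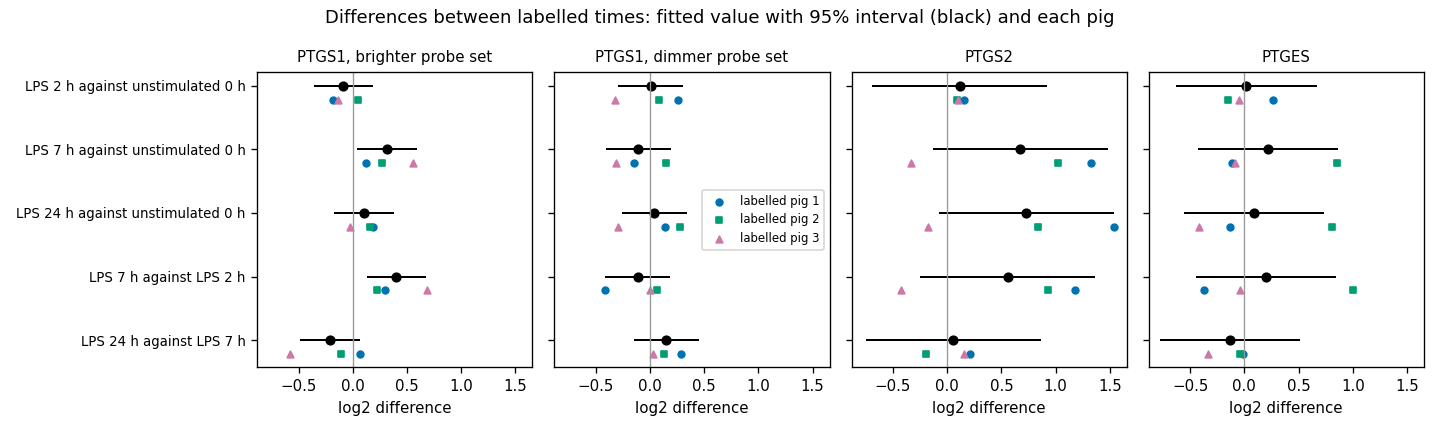
Log2 difference (x axis) between labelled times for the 5 comparisons (y axis) in the 4 probe sets; black points and lines are the fitted difference and its 95% interval, coloured marks the difference in each labelled pig. The widest intervals are those of PTGS2, for which labelled pig 3 lies below 0 at 7 and 24 h against 0 h while pigs 1 and 2 lie above.

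The most similar arrays gave nearly the same values of the members, and labelled duplicate cultures did not. Within the 11 most similar pairs, the median difference in PTGES was 0.09 log2 units and the widest 0.41. Within the 11 pairs of labelled duplicate cultures the median was 1.21 and the widest 2.03. For PTGS2 the median and widest differences were 0.15 and 0.45 in the most similar pairs, against 2.15 and 3.28 in labelled duplicates. For PTGS1 they were 0.11 and 0.47, against 1.40 and 2.01. The dimmer PTGS1 probe set had no such contrast, with medians of 0.27 and 0.19. The pairs were chosen for similarity over other probe sets, so their differences are a low estimate of the error, and because they join different labelled times they bear on the labels too. In the comparisons of 2 h with 0 h and of 24 h with 7 h, which run within these pairs, the SE of 0.28 for PTGES and 0.35 for PTGS2 came from the spread across all times and is not the spread within pairs.

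**Figure D4:**
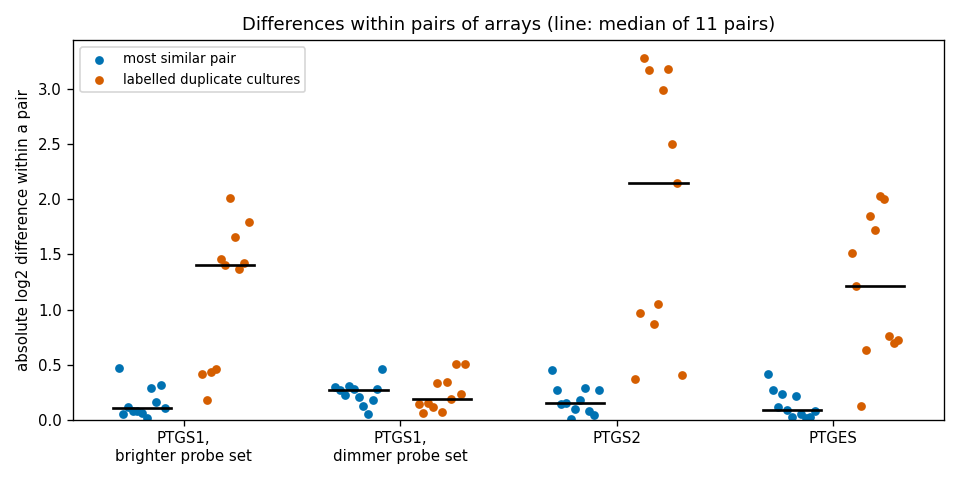
Absolute log2 difference (y axis) between the arrays of a pair, for 11 most similar pairs and 11 pairs of labelled duplicate cultures, in the 4 probe sets; each point is a pair and the black line is the median. Labelled duplicates lie up to 3.28 apart for PTGS2, and the widest most similar pair, of PTGS1, lies 0.47 apart.

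PTGS1 and PTGES had similar patterns over the arrays, and PTGS2 a different one. Over the 23 arrays the Pearson correlation of PTGES with PTGS1 was 0.96, which placed PTGS1 at rank 13 among the 6764 other genes in likeness to PTGES. PTGS2 correlated at 0.32 with PTGS1 and at 0.35 with PTGES. These values describe arrays that form 11 near-identical pairs. With each pair averaged, over 12 units, they were 0.96, 0.30 and 0.34.

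The genes most like PTGES over the 23 arrays were TAPBP (r = 0.99), which loads peptides onto MHC class I, PSME2 (0.98), a proteasome activator subunit, CXCL13 (0.97), a chemokine for B cells, RNF114 (0.97), a ubiquitin ligase, and OPTN (0.97), an autophagy receptor. Those most like PTGS1 were AOAH (0.98), the enzyme that removes acyl chains from LPS, GLRX (0.97), a glutaredoxin, CXCL13 (0.97), SRP9 (0.97), a subunit of the signal recognition particle, and ITM2C (0.97), a membrane protein. CXCL13 was on both lists and ran from 4.90 to 13.54 over the arrays. For PTGS2 the nearest genes were GRAMD2B (0.90), DNAJB6 (0.90) and DNAJB4 (0.86), of which the DNAJB genes encode co-chaperones of HSP70, with OSER1 (0.87) and ECD (0.86).

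Of 5 cytokine genes that LPS is known to induce, 4 were nearer in rank to PTGS2 than to PTGES. The chemokine CXCL8 stood at rank 52 in likeness to PTGS2 (r = 0.75), IL1B at rank 74 (0.73), TNF at rank 84 (0.72) and IL10 at rank 147 (0.65) of 6764 genes. IL6 stood apart at rank 2511 (0.06). For PTGES the same genes ranked 681 (CXCL8, r = 0.68), 960 (IL1B, 0.59), 2299 (TNF, 0.24), 1091 (IL10, 0.55) and 883 (IL6, 0.61), and their correlations with PTGS1 were 0.69, 0.63, 0.24, 0.60 and 0.66. For CXCL8, IL1B and IL10 the correlations with PTGS2 and PTGES were thus closer than the ranks, since more genes correlated highly with PTGES. Ranks say how arrays sort by these genes and carry no time.

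Of 43 other genes of prostaglandin and leukotriene handling, 17 had a named probe set, and 0 of 17 passed the limma test in any comparison of labelled times (lowest adjusted p = 0.914). Upstream, 3 of 9 genes around arachidonate release were measured, with a median span of 0.92 log2 units, close to that of all genes (0.96). PLA2G7, a secreted phospholipase that degrades platelet-activating factor, stayed between 12.43 and 13.44, PLAA, an activator of phospholipase A2, between 9.39 and 10.31, and MGLL, the lipase that frees arachidonate from an endocannabinoid, between 4.99 and 5.88. PLA2G7 was bright on every array, and its arrays in labelled pig 1 (13.26 to 13.44) lay above those of pigs 2 and 3 (12.43 to 13.23), the reverse of PTGES. The correlation of PLA2G7 with PTGES over the 23 arrays was -0.83.

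Among the other prostanoid synthases, 5 of 10 were measured and 1, CBR3, spanned at least 2 log2 units, against 13.3% of all genes. CBR3, a carbonyl reductase, ran from 6.84 to 9.11, and TBXAS1, the thromboxane synthase, from 6.79 to 8.58. PTGDS, a prostaglandin D2 synthase, ran from 5.31 to 6.85. PTGES3, the cytosolic prostaglandin E synthase that is also an HSP90 co-chaperone, ran from 10.39 to 11.84. Its arrays in labelled pig 1 (10.39 to 10.65) lay below all others (10.76 to 11.84), as did those of PTGES, with a span of 1.45 log2 units against 6.06 for PTGES.

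The enzymes that break prostaglandins down were measured by PTGR1 and PTGR2, 2 reductases, of 5 genes on the list for breakdown and transport. PTGR1 ran from 9.01 to 10.54 and PTGR2 from 3.85 to 5.44, and both had their lowest array in labelled pig 3. PTGR2 correlated with PTGES at -0.78 over the 23 arrays. Of 10 receptor genes, 3 were measured. The prostaglandin receptors PTGER3 and PTGFR stayed below 4.73 on every array and spanned 0.49 and 0.53 log2 units, less than the median gene (0.96). PPARG, a nuclear receptor that binds prostaglandin J2 derivatives, ran from 5.35 to 9.96, with both extremes in labelled pig 3, and correlated with none of the 3 members beyond 0.09 in size.

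Other routes draw on the same arachidonate, and 3 of 4 measured genes of the 9 on the list for lipoxygenases and leukotrienes spanned at least 2 log2 units, against 13.3% of all genes. The list also holds EPHX2, the soluble epoxide hydrolase, which acts on epoxy fatty acids made by cytochrome P450 enzymes and not in leukotriene synthesis. Without it the count was 2 of 3 measured genes, of 8. EPHX2 lay between 7.73 and 8.34 in labelled pig 1, between 7.82 and 8.26 in pig 2 and between 5.75 and 7.78 in pig 3, and correlated with PTGES at -0.71. ALOX5AP, which presents arachidonate to 5-lipoxygenase, ran from 7.04 to 9.45, and the leukotriene receptor CYSLTR1 from 5.44 to 7.63. ALOX15, a lipoxygenase, stayed between 3.31 and 4.38. None of the 17 genes reached the span of PTGES, PTGS1 or PTGS2, and PPARG came nearest, with 4.61 log2 units against 4.83 for PTGS2.

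**Figure D5:**
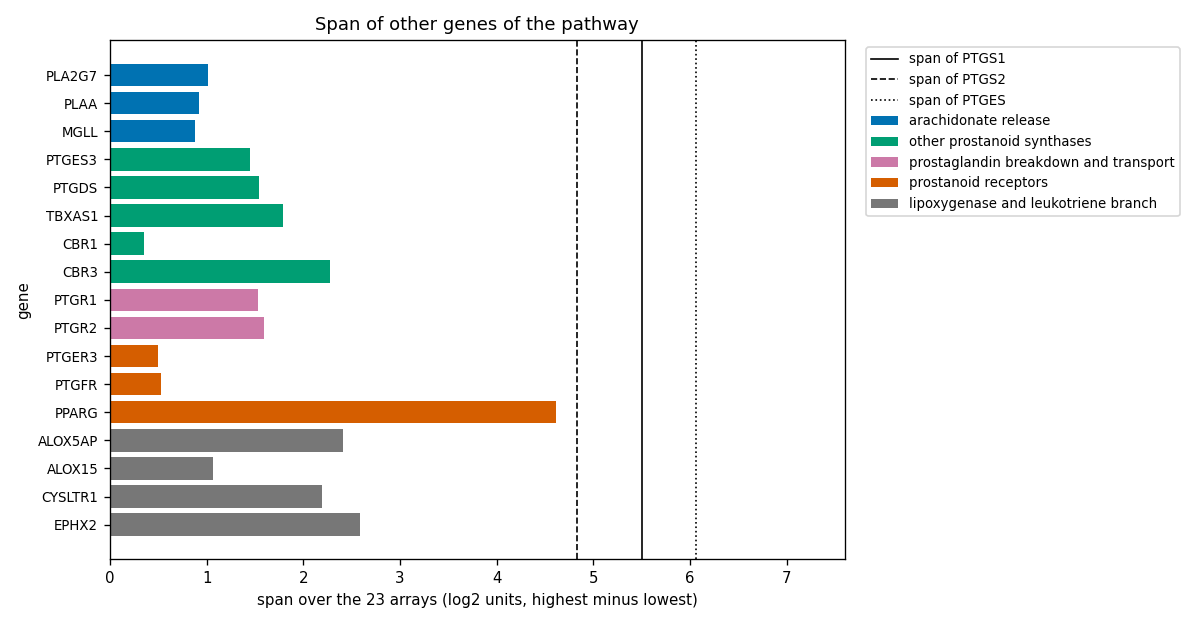
Span over the 23 arrays (x axis, highest minus lowest log2 intensity) of 17 other genes of the pathway (y axis), coloured by role, with the spans of PTGS1, PTGS2 and PTGES as vertical lines. PPARG reaches 4.61, and no bar crosses the line of PTGS2 at 4.83.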

How the data were processed

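The authors deposited 1 intensity per probe set and array, on a linear scale. The submitters' processing notes name affy and RMA, without versions or settings. Array medians ran from 69.2 to 73.4 intensity units, and the number of arrays limits the precision. The deposited intensities were taken to log2 with no further normalization, and the 124 controls among 24123 probe sets were dropped. The platform annotation lists a single gene for 10069 of the rest, more than 1 for 198, and 13732 are unnamed here. Symbols were updated by gene identifier (9961 matched) through RefSeq's table of Sscrofa11.1. The probe set with the highest mean stood for a gene.

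Groups follow the labels. Terms for time and pig were fitted to the 12 means of pig and time (6 residual degrees of freedom) by limma, version 3.58.1, under R 4.3.3, with Benjamini-Hochberg adjustment over 23999 probe sets and a threshold of 0.05. The pairing by pig comes from the series description. Within a labelled pig, deviations from the group means correlated at 0.27 to 0.97. They correlated at 0.83 to 0.97 between the times that most similar pairs join, and at 0.27 to 0.78 otherwise. The range follows those pairs and cannot show that a labelled pig is a single animal. The interaction was fitted to the 23 arrays singly. Both fits were tested on simulated data. Pearson correlations across arrays are descriptions. The design assumed log2 values; the file held linear ones.

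All member probe sets were named, as were called genes and up to 4 genes of widest span per list, and the 5 genes most like each member. Other genes of a list were named after their values were seen. The members and lists were chosen with earlier results of these data known.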

Additional observations from a re-analysis of the deposited data

Results flagged for a closer look

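Among 16 combinations of member probe set and labelled time, 1 had an array far from the others. It was the dimmer PTGS1 probe set at the labelled 2 h, where the duplicate culture of pig 3 had a log2 intensity of 4.85 and the other 5 arrays lay between 4.58 and 4.66. The critical value is Dixon's at 95%, which by its definition about 1 in 20 groups of normally distributed values passes. The brighter PTGS1 probe set had 9.32 on the same array.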

How the results depend on the processing

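In 215 refits of the member differences, 0 passed the limma test (lowest adjusted p = 0.253, for PTGS2 at 24 h over 0 h without pig 3), 199 kept their direction and 16 did not. Each of the 16 was smaller in size than 0.28 log2 units, and the cause was not tested. Counts of called probe sets were small and unstable, and the disagreement of arrays and labels touches all of them. The fit without the 8 arrays was chosen after seeing the data and is unbalanced by culture.

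With the first cultures only, PTGS1 differed by 0.14 at 24 h over 7 h. With the duplicate cultures only, PTGES differed by -0.063, the dimmer PTGS1 probe set by -0.12 and the brighter by 0.0089 at 2 h over 0 h, and PTGES by 0.13 at 24 h over 7 h. Without the 8 arrays against their sex, the dimmer PTGS1 probe set differed by 0.064 at 7 h over 0 h. Leaving out each pig in turn gave, at 2 h over 0 h, -0.10 to 0.11 for PTGES and -0.12 to 0.17 for the dimmer PTGS1 probe set. At 7 h over 0 h it gave -0.10 to 0.38 for PTGES, and at 24 h over 0 h -0.27 to 0.34 for PTGES and -0.078 to 0.21 for the dimmer PTGS1 probe set. At 7 h over 2 h it gave -0.21 to 0.49 for PTGES and -0.21 to 0.034 for the dimmer PTGS1 probe set, and at 24 h over 7 h -0.019 to 0.18 for PTGS2.

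Called probe sets over the array, in limma, were 3 at 2 h over 0 h, 0 at 7 h over 0 h, 1 at 24 h over 0 h, 1 at 7 h over 2 h, 1 at 24 h over 7 h and 2 over all times. Leaving out each pig gave 0 to 0 in all 6, and the first or the duplicate cultures alone gave 0 in all 6. With no replicate block, 2 passed at 24 h over 0 h and 3 at 7 h over 2 h. With the 23 arrays and a random block, 30, 15, 28, 21 and 34 passed at 2 h and 24 h over 0 h, 7 h over 2 h, 24 h over 7 h and over all times. Quantile normalization gave 0 at 2 h and at 24 h over 0 h and 1 over all times. Fits of only the times compared gave 19 at 2 h over 0 h and 0 in the other 4. Without the 8 arrays, the counts were 0 at 2 h, 1 at 7 h and 3 at 24 h over 0 h, 0 at 24 h over 7 h and 1 over all times. The interaction passed for 1 probe set, and for 3 among the 12590 with a mean log2 of at least 6. The dimmer PTGS1 probe set is not among those 12590.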
